A study of Mus musculus with 4 samples.

Results

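The Hox genes are homeodomain transcription factors that lie in 4 clusters, Hoxa on chromosome 6, Hoxb on chromosome 11, Hoxc on chromosome 15 and Hoxd on chromosome 2 of the mouse. They were followed here as 48 probe sets of 45037 on the array, a probe set being the group of short oligonucleotides that gives 1 level. Members were all probe sets whose only symbol in the platform annotation was Hoxa, Hoxb, Hoxc or Hoxd with a number from 1 to 13. They covered 33 of the 39 Hox genes in RefSeq, namely 9 of 11 Hoxa, 9 of 10 Hoxb, 7 of 9 Hoxc and 8 of 9 Hoxd genes. The remaining Hox genes were not analysed here, and 3 probe sets shared by neighbours (Hoxd4 with Hoxd3, and Hoxb8 with Hoxb7) were left out.

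By their titles, the cells were mouse endothelial cells derived from induced pluripotent stem cells (iPSCs, adult cells reprogrammed to a state like that of the early embryo). In the tested arm they came from 2 mice with diet-induced obesity (DIO), and in the other from 2 healthy control mice, with 1 array per mouse, called DIO 1, DIO 2, control 1 and control 2. All mice were 24 weeks old. Cells of both arms were kept in an endothelial culture medium and lifted with trypsin, and their total RNA was used. The labels name no strain, sex, diet, reprogramming method or cell sort. Their cell type entry reads iPSC, and they do not say how many iPSC lines each mouse gave, so p-values measure the spread between these arrays, which may be technical in part.

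In the embryo, the order of Hox genes along a cluster mirrors the order of their domains from head to tail. Low numbers act in the hindbrain and neck, middle numbers in the trunk, and high numbers in the lumbar region, tail and limb ends. Pluripotent cells keep the clusters silent under Polycomb proteins, and adult cells such as fibroblasts, skin cells and endothelium keep a Hox code of the body region they came from. In cultured human endothelial cells, HOXA3, HOXA9, HOXB3 and HOXD3 have been described as promoting vessel growth, and HOXA5 and HOXD10 as opposing it.

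Levels are log2 expression values, so that 1 unit is a doubling, and differences are the DIO mean minus the control mean. The median over all probe sets was 5.61 and 5.60 on DIO 1 and 2, against 5.63 and 5.64 on control 1 and 2. As a measure of the RNA, 18S ribosomal RNA was at 12.30 and 11.96 in DIO, against 12.60 and 12.65 in the controls, so the groups did not overlap, and its part in any result was not tested. Control 2 stood apart from the other arrays. Of 21 measured epithelial and epidermal markers, 17 were highest there, and the list averaged 9.29 and 9.99 on DIO 1 and 2, against 8.31 on control 1 and 12.08 on control 2. The 20 pluripotency markers averaged 10.43 and 9.33 in DIO, against 10.05 and 9.14 in the controls, with Pou5f1 at 11.79 and 10.33 in DIO, against 11.16 and 9.96 in the controls. All genes averaged 7.13 and 7.11 on DIO 1 and 2, against 7.14 and 7.13 on control 1 and 2. The 20 endothelial markers were below that, with averages of 5.89 and 5.80 in DIO, against 5.92 and 6.13 in the controls. The means of these markers over the 4 arrays ran from 3.62 to 8.87. Among them the cadherin Cdh5 was at 8.48 and 9.34 in DIO, against 8.37 and 8.87 in the controls. Esam was at 8.76 and 9.11 in DIO, against 8.66 and 8.93 in the controls. Egfl7 was at 8.98 and 8.75 in DIO, against 8.80 and 8.27 in the controls. Fli1, Tie1 and Emcn did not exceed 3.88 on any array. Apart from Cdh5, these genes were chosen after their values were seen. Without detection calls, the distance of a dim level from background cannot be given.

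Hox probe sets were dim on every array. Their means over the 4 arrays ran from 3.15 for Hoxb1 to 6.39 for Hoxd9, with a median of 4.55, and 39 of the 48 lay below 5.63, the median of all probe set means. The brightest stood at percentile 58.6 of all probe sets, and no single value of any Hox probe set exceeded 6.72. Brightness depends on the probes as well as on the RNA, so a ranking of probe sets by level is only rough. In bulk samples such as these, fewer cells that express a gene and less RNA per cell cannot be told apart. An identical value stood on 2 arrays for 5 of the 48, or 10.4%, against 2.62% of all probe sets with such a repeat.

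**Figure D1:**
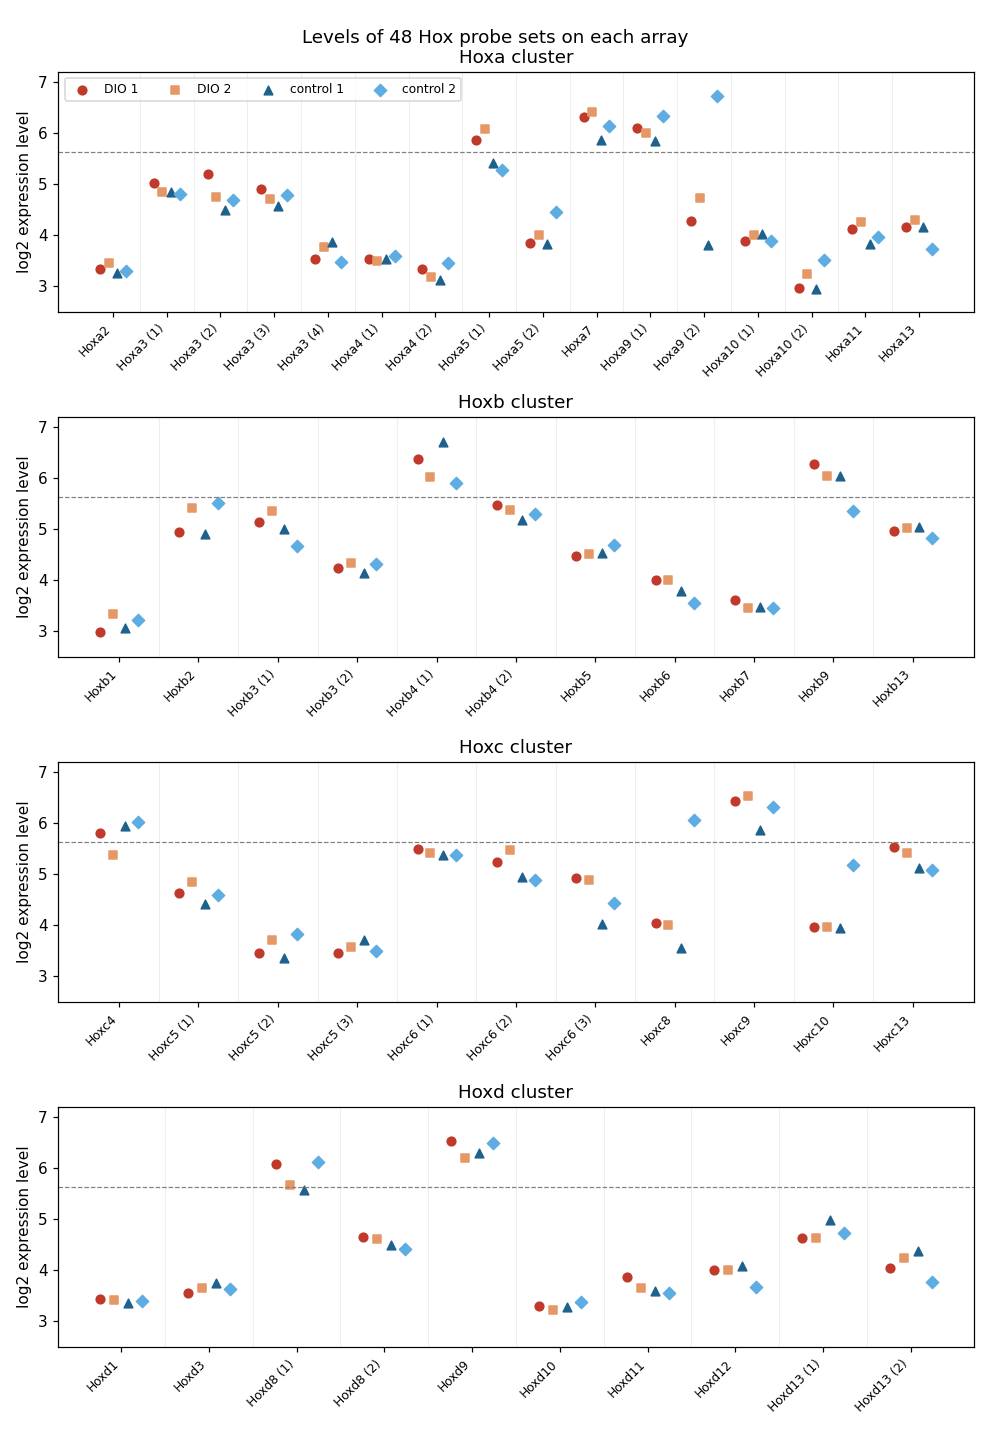
Log2 expression level of each of the 48 Hox probe sets on DIO 1, DIO 2, control 1 and control 2, in 1 panel per cluster and ordered by position number. Probe sets of 1 gene are numbered from the brightest, and the dashed line is the median of all probe set means, 5.63. Most points lie below the line, and the control 2 point stands clear of the other 3 for the dimmer Hoxa9 probe set, Hoxc8 and Hoxc10.

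The 9 probe sets above that median came from all 4 clusters and from the middle and higher numbers. They belonged to Hoxa5, Hoxa7 and Hoxa9, to Hoxb4 and Hoxb9, to Hoxc4 and Hoxc9, and to Hoxd8 and Hoxd9. Hoxd9, which patterns the sacral spine and the upper limb together with its neighbours, was at 6.54 and 6.20 in DIO, against 6.30 and 6.50 in the controls. Hoxb4, known for expanding blood stem cells, was at 6.37 and 6.03 by its brighter probe set in DIO, against 6.71 and 5.90 in the controls. Hoxd8, a gene of the trunk, was at 6.09 and 5.67 in DIO, against 5.58 and 6.12 in the controls. In these 3 probe sets the groups overlapped. The dimmest members included the hindbrain genes Hoxb1 and Hoxa2 and, at the other end, Hoxd10 and a probe set of Hoxa10, all with means of 3.33 or less.

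Averaged over its probe sets, the Hoxa cluster (16 probe sets) was at 4.40 and 4.45 in DIO, against 4.21 and 4.51 in the controls. Hoxb (11 probe sets) averaged 4.77 and 4.81 in DIO, against 4.72 and 4.62 in the controls, and Hoxc (11 probe sets) 4.82 and 4.84, against 4.57 and 5.03. Hoxd (10 probe sets) averaged 4.41 and 4.33 in DIO, against 4.38 and 4.32 in the controls. Only in Hoxb, among these 4 averages, did both DIO arrays lie above both controls. The averages of Hoxa and Hoxc were lowest on control 1 and highest on control 2. With the 3 probe sets that were 1 unit or more higher on control 2 than on control 1 left out, Hoxa was at 4.41 and 4.43 in DIO, against 4.24 and 4.36 in the controls, and Hoxc at 5.0 and 5.03, against 4.75 and 4.89. Those 3 were picked by their values, so this shows only how much of the spread between the controls they carry.

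Along the clusters, members numbered 1 to 3 (11 probe sets) averaged 4.21 and 4.28 in DIO, against 4.11 and 4.16 in the controls. Those numbered 4 to 8 (20 probe sets) averaged 4.73 and 4.71 in DIO, against 4.54 and 4.75 in the controls, and those numbered 9 to 13 (17 probe sets) 4.65 and 4.67, against 4.54 and 4.74. Both DIO arrays were above both controls for numbers 1 to 3 alone. Genes that share a number in different clusters are paralogs, descended from a single ancestral gene. Paralog group 9 had the highest average on every array, at 5.92 and 5.90 in DIO, against 5.58 and 6.25 in the controls. Paralog group 1 had the lowest average, at 3.21 and 3.38 in DIO, against 3.21 and 3.31 in the controls, and was represented by Hoxb1 and Hoxd1 alone.

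**Figure D2:**
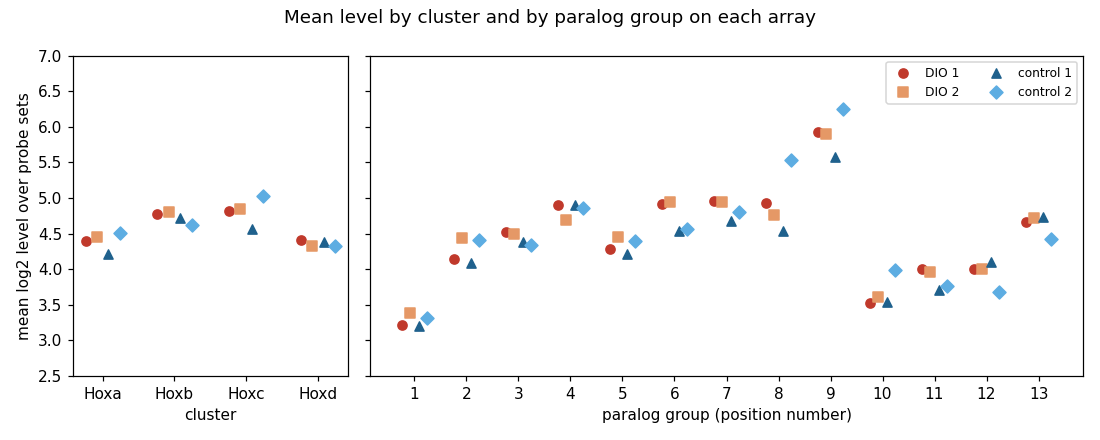
Mean log2 level over the probe sets of each cluster (left) and of each paralog group (right) on DIO 1, DIO 2, control 1 and control 2, with no error bar because each point is 1 array. Control 2 is highest in the Hoxa and Hoxc clusters and in paralog groups 8, 9 and 10, and both DIO points lie above both control points in paralog groups 3, 6, 7 and 11.

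DIO cells were then compared with control cells, probe set by probe set, to ask whether endothelial cells made from obese and from healthy animals differ in Hox expression. Of the 48 Hox probe sets, 0 passed an adjusted p of 0.05 in limma (Benjamini-Hochberg over 45037 probe sets), where 0% of all probe sets passed. At an unadjusted p below 0.05 there were 4 Hox probe sets, or 8.33%, all higher in DIO, against 9.29% of all probe sets, 4.12% higher and 5.17% lower. The share of Hox probe sets was thus no larger than that over the whole array. Most Hox probe sets are dim, however, and among all probe sets dimmer than the median 1361 of 22518 had such a p, a smaller share. Their 95% confidence intervals reached a median of 0.40 log2 units to either side, from 0.30 to 2.68, so differences of that size cannot be told from none. For a single probe set, the smallest p of an exact 2-sided permutation test over these arrays is 0.333.

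Differences were small. They ran from −0.78 for Hoxc8 to 0.68 for a probe set of Hoxc6, and 43 of 48 were under 0.5 in size. None reached 1 unit, a doubling, against 1.17% of all probe sets. The median difference was 0.06, against 0.01 over all probe sets and 0.04 over those dimmer than the median. By cluster it was 0.05 in Hoxa, 0.06 in Hoxb, 0.09 in Hoxc and 0.03 in Hoxd, and by position 0.06, 0.05 and 0.06 for numbers 1 to 3, 4 to 8 and 9 to 13. Of the 48 probe sets 28 had a higher DIO mean, or 58.3%, against 52.4% of all and 60.1% of those dimmer than the median.

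The groups did not overlap in 23 Hox probe sets, with both DIO arrays the higher in 20 and the lower in 3. These are 41.7% and 6.25% of the 48, against 22.3% and 19% of all probe sets, and against 27.9% and 13% of those dimmer than the median. With 1 probe set per gene the counts were 15 and 3 of 33 genes, or 45.5% and 9.09%, against 21.4% and 17% of all genes. After quantile normalization they were 15 and 6 of 48, or 31.25% and 12.5%, against 23.0% and 18.5% of all. Of those dimmer than the median the shares were then 22.2% and 18.2%. Set against control 1 alone, 32 Hox probe sets were higher on both DIO arrays, or 66.7%, against 34.6% of all and 42.6% of those dimmer than the median. Set against control 2 alone, 25 were higher, or 52.1%, against 46.4% of all and 47.9% of the dimmer ones, so the count depended on which control was used.

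**Figure D3:**
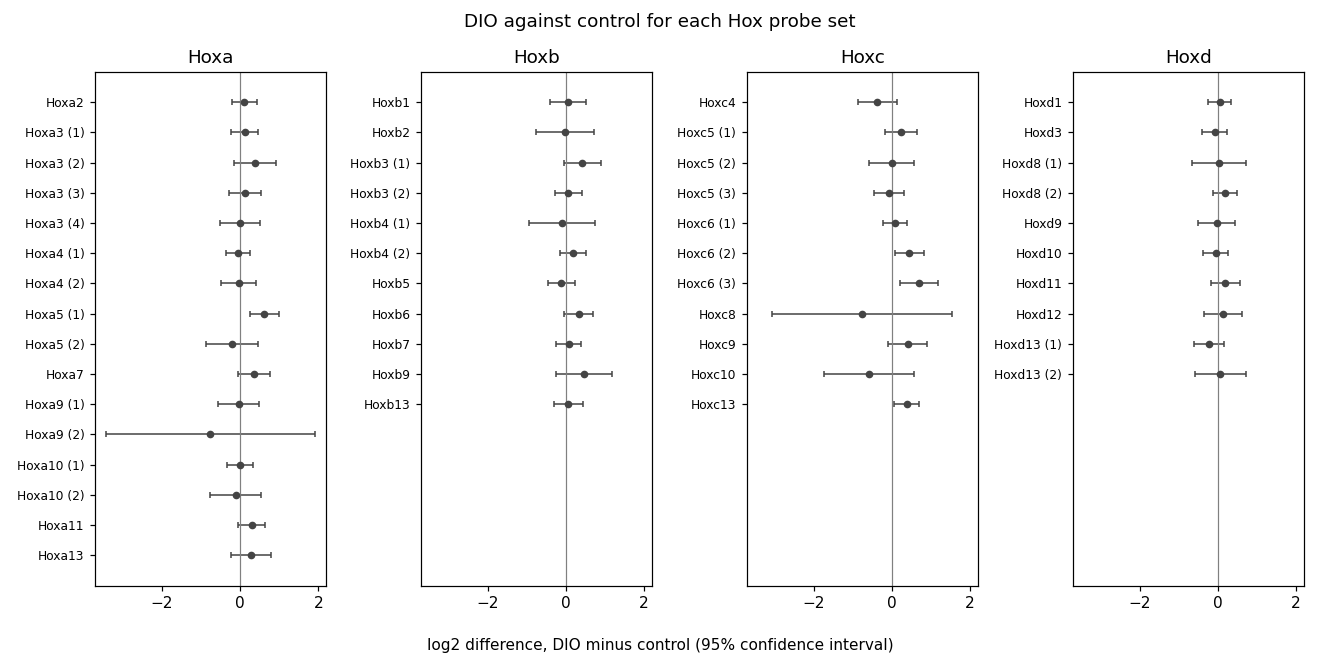
Difference in log2 level, DIO minus control, for each Hox probe set, with its 95% confidence interval from limma (2 arrays per group), in 1 panel per cluster. Probe sets of 1 gene are numbered from the brightest. Most points lie within 0.5 of 0, and the intervals of the dimmer Hoxa9 probe set, Hoxc8 and Hoxc10 are the widest.

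Hoxa5 and Hoxc6 had the largest positive differences. Hoxa5, a gene of the lung and the lower neck, was at 5.87 and 6.07 in DIO, against 5.41 and 5.28 in the controls, by its brighter probe set. Both DIO arrays were higher, by 0.62 ± 0.14 (SE, 2 arrays per group), with an unadjusted p of 0.00896 that did not survive adjustment (limma, adjusted p = 0.531). The dimmer Hoxa5 probe set went the other way, at 3.85 and 3.99 in DIO, against 3.82 and 4.45 in the controls. Its difference was −0.21 ± 0.24, and 0.11 without control 2. The brighter of the 2 carries the suffix that the manufacturer gives where some probes also match other sequences, so what it measures is less certain.

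Hoxc6, a gene of the thorax and the mammary gland, had 3 probe sets, and in each both DIO arrays were above both controls. They share a target, so they are not independent of each other. One was at 4.93 and 4.89 in DIO, against 4.02 and 4.43 in the controls, a difference of 0.68 ± 0.18 (limma, adjusted p = 0.531). It carries the same suffix. Another was at 5.23 and 5.47 in DIO, against 4.95 and 4.88 in the controls, a difference of 0.44 ± 0.14 (limma, adjusted p = 0.531). The brightest was at 5.50 and 5.43 in DIO, against 5.38 and 5.38 in the controls, which is 0.09 ± 0.12 (limma, adjusted p = 0.836), and 0.05 without DIO 1. The only other measured gene of paralog group 6, Hoxb6, was at 4.0 on both arrays in DIO, against 3.79 and 3.56 in the controls, a difference of 0.32 ± 0.14 that was 0.20 without control 2. Over these 4 probe sets the average was 4.92 and 4.95 in DIO, against 4.53 and 4.56 in the controls.

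Hoxc13, which drives keratin genes of hair and nail, was at 5.53 and 5.42 in DIO, against 5.12 and 5.08 in the controls. Its difference was 0.38 ± 0.12 with an unadjusted p of 0.0304 (limma, adjusted p = 0.531), and it was 0.36 without control 2 and 0.39 without control 1. None of the other differences with no overlap of the groups reached an unadjusted p of 0.05. Of the larger ones, that of a Hoxa3 probe set, 0.38, is given below with the others of its gene. Hoxb9, a gene of the rib cage, was at 6.27 and 6.05 in DIO, against 6.04 and 5.36 in the controls, and its difference of 0.45 ± 0.27 was 0.12 without control 2. Hoxb3, a hindbrain gene, was at 5.14 and 5.35 by its brighter probe set in DIO, against 5.0 and 4.67 in the controls, a difference of 0.41 ± 0.17 that was 0.25 without control 2. Hoxc9, which sets the thoracic type of motor neurons, was at 6.44 and 6.54 in DIO, against 5.87 and 6.31 in the controls. That is 0.40 ± 0.19, and 0.18 without control 1 or 0.62 without control 2. Hoxa7, a trunk gene also expressed in skin, was at 6.31 and 6.42 in DIO, against 5.87 and 6.14 in the controls, a difference of 0.36 ± 0.15 that was 0.22 without control 1. For Hoxb9, Hoxb3, Hoxc9 and Hoxa7 the adjusted p in limma lay at 0.640, 0.557, 0.579 and 0.557.

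Only 3 Hox probe sets had both DIO arrays below both controls. Hoxc4, a gene of the neck and the first of its cluster, was at 5.82 and 5.39 in DIO, against 5.94 and 6.03 in the controls, a difference of −0.38 ± 0.19 (limma, adjusted p = 0.586) that was −0.17 without DIO 2 and −0.60 without DIO 1. Hoxd13, which shapes digits, was at 4.63 and 4.63 in DIO, against 4.98 and 4.73 in the controls, by its brighter probe set. Its difference was −0.23 ± 0.14 (limma, adjusted p = 0.651) and −0.11 without control 1, while the dimmer probe set differed by 0.06 ± 0.24. Hoxb5, described in the mouse as an activator of the endothelial receptor gene Kdr, was at 4.47 and 4.51 in DIO, against 4.53 and 4.69 in the controls. Its difference was −0.12 ± 0.12, and −0.04 without control 2. Kdr itself was at 6.27 and 6.32 in DIO, against 6.33 and 6.83 in the controls.

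The largest spread among the Hox genes lay between the 2 control arrays, not between the groups. Hoxa9, a gene of blood progenitors and of the thoracic and lumbar spine, was at 4.27 and 4.73 in DIO, against 3.81 on control 1 and 6.72 on control 2 by its dimmer probe set. Control 2 was 2.91 log2 units above control 1 and at least 1.99 above every other array. Hoxc8, which patterns the lower thorax, was at 4.05 and 4.01 in DIO, against 3.55 on control 1 and 6.07 on control 2, a gap of 2.52 units between the controls. Hoxc10, a gene of the lumbar region and hindlimb, was at 3.97 and 3.97 in DIO, against 3.94 on control 1 and 5.18 on control 2, a gap of 1.24 units. The control 1 levels of all 3 lay below the lower quartile of that array, 4.06, so the gaps say nothing exact about the ratio of RNA. All 3 were highest on control 2, and the other 3 arrays lay close together in Hoxc10 and within 1 unit in Hoxc8 and Hoxa9.

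These 3 were the only Hox probe sets that differed by 1 unit or more between arrays of 1 group. On control 2, 3 of 48 were 1 unit or more above control 1, against 3.06% of all probe sets. None was lower by that much, against 1.12% of all, and none moved that far between the DIO arrays, against 0.75% of all. The group difference of these probe sets therefore depended on control 2. It was −0.76 ± 1.0 for Hoxa9, −0.78 ± 0.86 for Hoxc8 and −0.59 ± 0.43 for Hoxc10 over all arrays. Without control 2 it was 0.69, 0.48 and 0.03. Without control 1, the fit set DIO against control 2 alone and gave −2.22 for Hoxa9, −2.04 for Hoxc8 and −1.21 for Hoxc10. These 3 were picked for their high values on control 2, so that fit is no test of them. The lone control was assumed there to vary as the DIO arrays do.

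The brighter Hoxa9 probe set did not show the same gap. It was at 6.09 and 6.01 in DIO, against 5.85 on control 1 and 6.33 on control 2. Both probe sets were highest on control 2 and lowest on control 1, but the controls were 0.48 units apart in one and 2.91 in the other. No other Hoxa probe set was more than 0.63 units higher on control 2 than on control 1. The genes on either side of Hoxa9, Hoxa7 and Hoxa10, were 0.28 units higher on control 2 in Hoxa7 and −0.13 and 0.57 units apart in the probe sets of Hoxa10.

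The epidermal genes that set control 2 apart are given beside these values. Trp63, the regulator of basal epidermal cells, was at 4.55 and 4.84 in DIO, against 4.15 on control 1 and 8.37 on control 2. The basal keratin Krt5 was at 7.55 and 8.34 in DIO, against 6.73 on control 1 and 11.89 on control 2. Both were named after their values were seen. The dimmer Hoxa9 probe set ranked the arrays as they did, with control 2 highest, then DIO 2, DIO 1 and control 1, and so did 5 of the 48 Hox probe sets (10.4%), against 3.97% of all. With 1 probe set per gene this order was found in 1 of 33 Hox genes (3.03%), against 4.47% of all genes. Among the other marker lists, 9 of 17 endoderm and trophoblast genes, 8 of 17 mesenchymal, 7 of 20 endothelial, 2 of 16 mesoderm and neural and 1 of 20 pluripotency genes were highest on control 2, against 20.9% of all genes. Whether the epidermal genes have any part in the Hox values was not tested.

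**Figure D4:**
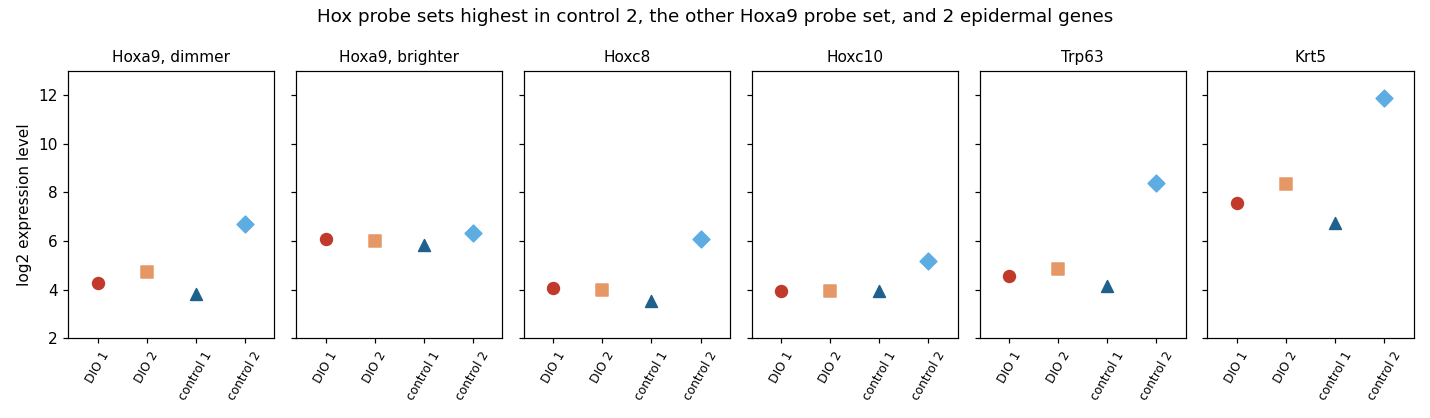
Log2 level on DIO 1, DIO 2, control 1 and control 2 of both Hoxa9 probe sets, Hoxc8 and Hoxc10, beside the epidermal genes Trp63 and Krt5. Control 2 is the highest array in every panel, by 1.99 units in the dimmer Hoxa9 probe set and by 0.24 units in the brighter.

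The promoter of Hoxa9 is shown because this gene had the widest gap between arrays, with that of its neighbour Hoxa7, which did not. Each is the 250 bases before the transcription start in RefSeq (GRCm38.p6), printed 5′ to 3′ on the minus strand, from chr6:52227371-52227620 for Hoxa9 and chr6:52218574-52218823 for Hoxa7. Capitals mark TTTATG, a core that Cdx factors, activators of Hox genes, can bind.
Hoxa9: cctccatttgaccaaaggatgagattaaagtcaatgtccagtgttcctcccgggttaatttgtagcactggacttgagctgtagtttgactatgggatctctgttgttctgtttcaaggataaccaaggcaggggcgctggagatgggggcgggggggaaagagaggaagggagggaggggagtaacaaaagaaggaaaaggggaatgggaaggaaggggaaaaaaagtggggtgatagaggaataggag
Hoxa7: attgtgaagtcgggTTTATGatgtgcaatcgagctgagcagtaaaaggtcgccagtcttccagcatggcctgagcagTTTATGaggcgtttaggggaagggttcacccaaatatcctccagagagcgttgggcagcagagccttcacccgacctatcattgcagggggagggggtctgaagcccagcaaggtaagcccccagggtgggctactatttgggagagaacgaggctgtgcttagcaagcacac

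RefSeq's table held 24 such windows for 22 Hox genes, among them Hoxa6, Hoxb8 and Hoxd4. Most of these windows were of Hoxa and Hoxd genes, with Hoxb1, Hoxb4 and Hoxb8 from Hoxb, Hoxc4 alone from Hoxc, and none for Hoxc8 or Hoxc10. Their CpG dinucleotides, the sites of DNA methylation, numbered 12.5 at the median, against 6 over 32851 windows of all genes, and ran from 2 to 35. The Hoxa9 window had 3 and the Hoxa7 window 7. TTTATG on either strand was found in 5 of the 24 Hox windows (20.8%), against 10.8% of all windows, with 2 copies in Hoxa7 and none in Hoxa9. Neither window of Hoxa10, the other neighbour of Hoxa9, held it, so its absence was not particular to Hoxa9. TGATNNAT, a site of Pbx and Hox proteins bound together, was in 4 (16.7%), against 7.68% of all. AGGTCA, the half-site of retinoic acid receptors, was in 6 (25%), against 14% of all. TATAAA, the letters of a TATA box, was in 4 (16.7%), against 12.4%. These matches, on either strand, began from 10 to 199 bases upstream, so they are not shown to be TATA boxes. Hoxa9 held none of these 4 motifs and Hoxa7 only TTTATG, and in the Hoxd3 window TTTATG and AGGTCA overlapped. A match is a run of letters and not a shown binding site.

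Genes with several probe sets gave a view of how far the readings agree. Of 11 such genes, 5 had probe sets of opposite sign, namely Hoxa3, Hoxa5, Hoxb4, Hoxc5 and Hoxd13. Hoxa3, a gene of the pharynx that promotes vessel growth in human cells, had 4 probe sets. The probe set with its largest difference was at 5.20 and 4.75 in DIO, against 4.49 and 4.69 in the controls. That is 0.38 ± 0.20, or 0.16 without DIO 1, and the other 3 differed by 0.12, 0.12 and −0.01. In that probe set and in the brightest, which differed by 0.12, the groups did not overlap. Hoxb4 differed by −0.11 ± 0.32 and 0.18 ± 0.12 in its 2 probe sets, with the brighter at 6.71 on control 1 and 5.90 on control 2, the widest gap among the controls after the 3 genes above. The dimmer was at 5.46 and 5.37 in DIO, against 5.19 and 5.30 in the controls, with no overlap. Hoxc5, a neck gene, was at 4.62 and 4.85 in DIO, against 4.42 and 4.60 in the controls, by the brightest of its 3 probe sets. That is 0.23 ± 0.15 with no overlap, and 0.12 without DIO 2, while the other 2 differed by −0.014 and −0.08 and overlapped. The dimmer Hoxd13 probe set, at 4.04 and 4.23 in DIO, against 4.38 and 3.77 in the controls, overlapped too.

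The other members moved little. Hoxa11 and Hoxa13, genes of the limb and the urogenital tract, differed by 0.29 ± 0.13 and 0.29 ± 0.19, with both DIO arrays above both controls, and Hoxa13 by 0.07 without control 2. Hoxd11 and the dimmer Hoxd8 probe set did so too, at 0.19 ± 0.13 and 0.18 ± 0.12, and Hoxd11 was at 0.08 without DIO 1. Hoxa2, a gene of the hindbrain and the second pharyngeal arch, and Hoxd1 differed by 0.10 and 0.04, again without overlap of the groups. Hoxb2 was at 4.95 and 5.42 in DIO, against 4.91 and 5.52 in the controls, so that its arrays split by mouse number and not by group. Hoxd3 and Hoxd10, described in human endothelium as a promoter and a brake of vessel growth, were at −0.09 ± 0.12 and −0.06 ± 0.12, with overlapping groups. The remaining probe sets, of Hoxa4, Hoxa10, Hoxb1, Hoxb7, Hoxb13 and Hoxd12 and the dimmer one of Hoxb3, lay between −0.12 and 0.12 and overlapped.

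Genes that act with or on Hox genes were read from the same fit, with 1 probe set per gene, and 0 passed in any of these lists (limma, adjusted p of 0.531 or more for every gene named here). Over all 18193 genes the median difference was 0.02, 53.3% had a higher DIO mean, and 1497 had an unadjusted p below 0.05. TALE homeodomain proteins bind DNA together with Hox proteins. Of 11 measured, 3 had an unadjusted p below 0.05 and the median was −0.03. Pknox2 and Meis3 were higher by 0.65 ± 0.14 and 0.39 ± 0.11, and Pbx2 differed by 0.40 ± 0.16, or 0.22 without DIO 2. Pbx3 was at 6.67 and 6.52 in DIO, against 7.26 and 8.05 in the controls, a difference of −1.06 ± 0.29 that was −0.66 without control 2 and −1.46 without control 1.

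Polycomb genes, which keep Hox clusters silent, had a median of −0.03 over 29 members, of which 12 had a higher DIO mean and 17 a lower. Kdm2b, which brings a Polycomb complex to CpG-rich promoters, was at 10.53 and 10.55 in DIO, against 9.99 and 10.03 in the controls, a difference of 0.53 ± 0.11. Phc3 differed by −0.44 ± 0.14, Bmi1 by −0.38 ± 0.15 and Eed by 0.32 ± 0.18, or 0.15 without control 2. Trithorax and MLL genes, which keep active Hox genes on, had a median of −0.03 over 22 members, with 10 higher and 12 lower. Kat6b differed by 0.47 ± 0.19, Psip1 by 0.32 ± 0.14, the H3K27 demethylase Kdm6b by −0.31 ± 0.16 and Kmt2c by −0.24 ± 0.13. Kat6b was at 0.25 without DIO 1 and Kdm6b at −0.18 without control 1.

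Retinoic acid, made from vitamin A, switches on low-numbered Hox genes in the embryo. Of 18 genes of its supply, breakdown and receptors, 11 had a lower DIO mean, 7 had both DIO arrays below both controls (38.9%, against 17% of all genes), and the median was −0.28. That median was −0.13 without control 2. The 4 with an unadjusted p below 0.05 in limma were all lower in DIO. Of all 18193 genes 1497 had such a p, 763 of them higher in DIO. Crabp2 and Rbp4, picked for their wide gaps between the controls, had no such p. Crabp2 was at 7.41 and 7.95 in DIO, against 7.26 and 10.87 in the controls. Its difference was −1.38 ± 1.23, or 0.42 without control 2, and that of Rbp4 was 0.62 ± 1.26. Stra6, the retinol uptake receptor, was at 6.61 and 6.60 in DIO, against 7.40 and 7.19 in the controls, a difference of −0.69 ± 0.13. Dhrs3, which turns retinal back to retinol, differed by −0.73 ± 0.19, the binding protein Crabp1 by −0.68 ± 0.25 and Rdh10, which makes retinal, by −0.61 ± 0.23. Without control 2 these were −0.80 for Stra6, −0.52 for Dhrs3, −0.39 for Crabp1 and −0.32 for Rdh10. The list averaged 6.64 and 6.86 in DIO, against 6.75 on control 1 and 7.27 on control 2.

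Regulators of body axis growth had a median of 0.12 over 15 members, 11 of them with a higher DIO mean (73.3%, against 53.3% of all genes). Msgn1 and Gdf11, which in the embryo marks the step to trunk and tail Hox genes, differed by 0.53 ± 0.15 and 0.56 ± 0.19. Both were dim, with Msgn1 at 5.07 and 5.21 in DIO, against 4.48 and 4.73 in the controls. Gdf11 was at 5.11 and 5.52 in DIO, against 4.64 and 4.86 in the controls. The pluripotency gene Lin28a differed by 0.76 ± 0.28 and Fgf17 by 0.22 ± 0.12. Gdf11 was at 0.35 without DIO 2 and Lin28a at 0.38 without control 2. The ParaHox and Evx genes, relatives of the Hox family, had a median of 0.14 over 8 members. Cdx2 was at 8.24 and 7.67 in DIO, against 7.59 and 7.05 in the controls, or 0.64 ± 0.29 and 0.35 without DIO 1, and it is also a trophoblast gene. Gsx2, Pdx1 and Gsx1 differed by 0.16, −0.15 and −0.10.

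Genes that flank the clusters, unlike the Hox genes, were mostly bright, with a median level of 9.53. Of 24 measured, 12 were higher and 12 lower, with a median of 0.03. Tax1bp1, Snx11 and Hibadh differed by −0.46 ± 0.14, −0.49 ± 0.18 and −0.35 ± 0.15, and Ttll6 by 0.33 ± 0.12. Hibadh was at −0.23 without DIO 2. The antisense transcripts Hoxd3os1, Hoxa11os and Hoxb5os differed by −0.23, 0.15 and 0.17, and the strand of their probes was not checked. Genes described as Hox targets in cultured human endothelium had a median of −0.24 over 13 members, of which 8 had a lower DIO mean. A higher one was found in 38.5% of them, against 53.3% of all genes. Efna1 differed by −0.71 ± 0.24, Thbs2 by −0.68 ± 0.25, Itgb3 by −0.46 ± 0.30 and Angpt2 by −0.24 ± 0.15. With 1 array left out, Efna1 was −0.44 without DIO 2, Thbs2 −0.36 without control 2, and Itgb3 −0.09 and Angpt2 −0.09 without control 1. The list averaged 7.11 and 7.21 in DIO, against 7.28 and 7.45 in the controls, and held Nos3 at −0.42 ± 0.30 and Kdr at −0.28 ± 0.20. The adhesion molecule Pecam1, a marker outside that list, was at 7.2 and 6.05 in DIO, against 7.34 and 6.83 in the controls, or −0.46 ± 0.44. Nos3, which makes nitric oxide in vessels, stood at 6.29 and 6.19 in DIO, against 6.25 and 7.06 in the controls, so both overlapped.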

How the data were processed

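Total RNA was labelled by an Affymetrix 3′ IVT protocol, per the labels. The values are log2 expression levels per probe set, deposited by the authors as 1 table. No label states the background correction, normalization or summary method, and the scale was taken from the values (2.59 to 14.51, where a natural log of a 16-bit signal ends at 11.09). Of 45101 probe sets, 64 manufacturer controls were kept out of the tests. Symbols came from the platform annotation. All 33 Hox genes matched RefSeq (GRCm38.p6) by gene number.

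The 2 DIO and 2 control arrays were fitted with lmFit and eBayes of limma 3.58.1 (R 4.3.3), 2-sided, over 45037 probe sets, with Benjamini-Hochberg adjustment and a threshold of 0.05. The fit was also run on simulated arrays that all had the same spread, so nothing is read from that about arrays such as control 2. Values are given per array for the 3 brightest probe sets of each cluster and up to 6 per direction whose groups did not overlap. They are also given for those with an unadjusted p below 0.05 and the 5 with the widest gap within a group. Genes with probe sets of opposite sign have them for some of their probe sets. Up to 4 genes of each other list, by p, are given by their difference, and only some of them per array. Pecam1, Cdh5, Kdr, Nos3 and Pou5f1 are always given per array. The members and lists were chosen with earlier results of these data known.

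Precision is limited by having 2 arrays in each group. The mouse numbers 1 and 2 name different animals in each group and were not used as pairs. Alternatives were quantile normalization, centring, leaving out the dimmest 40% of probe sets, 1 or averaged probe sets per gene, a trended robust and an ordinary statistic, leaving out each array, and mouse number as a block.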

Additional observations from a re-analysis of the deposited data

How the results depend on the processing

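No Hox probe set passed under any alternative except without control 1, and the count of Hox probe sets past the threshold ran from 0 to 2 with an array left out (0 to 592 over all probe sets). Mouse number as a replicate block kept 0 Hox probe sets past the threshold and the sign of all 48. The mouse 1 minus mouse 2 differences of the groups correlated at 0.27 over all probe sets, and the block gave 3 Hox probe sets at an unadjusted p below 0.05, against 4. The ordinary t statistic passed 4 of all probe sets, 0 of them Hox. The unadjusted Hox count was 2 without the dimmest 40% (11 of 16 left with a higher DIO mean). It was also 2 with 1 probe set per gene, 2 with averaged probe sets and 2 by the ordinary t. Over all probe sets 44.3% of the unadjusted calls were higher in DIO, against 53.3% after quantile normalization, 32.8% without the dimmest and 52.8% by the ordinary t.

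Chosen after seeing the data, the counts of Hox probe sets whose groups did not overlap were 22 to 32 above and 6 to 15 below with an array left out, where fewer arrays have to agree (34.2% to 46.4% and 28.35% to 41.1% of all probe sets), and 6 below after quantile normalization. Of the probe sets dimmer than the median, 40.6% to 47.9% were above and 24.9% to 30.1% below with an array left out. Without the dimmest 40% the median difference was 0.36 in Hoxa, 0.12 in Hoxb, 0.38 in Hoxc, 0.19 for numbers 1 to 3, 0.22 for 9 to 13 and 0.27 for axis regulators. That setting left 16 of the 48 Hox probe sets, so its Hox medians rest on few of them. Numbers 1 to 3 were then Hoxb2 (−0.03) and the brighter Hoxb3 probe set (0.41) alone. Hoxd was the brighter Hoxd8 probe set (0.03) and Hoxd9 (−0.04), and the median for numbers 4 to 8 is not listed. After quantile normalization numbers 1 to 3 were at 0.016, and with averaged probe sets the endothelial targets at −0.13. With an array left out, medians ran from 0.04 to 0.15 in Hoxa, 0.067 to 0.13 in Hoxb, 0.085 to 0.32 in Hoxc, −0.0097 to 0.084 in Hoxd, 0.016 to 0.12 for numbers 1 to 3, 0.018 to 0.17 for 4 to 8, and 0.028 to 0.17 for 9 to 13. For other lists they ran from −0.19 to 0.36 for cofactors, −0.021 to 0.16 for ParaHox and Evx, −0.11 to 0.15 for Polycomb, −0.12 to 0.072 for Trithorax, 0.087 to 0.21 for axis regulators, −0.44 to −0.13 for retinoic acid genes, −0.064 to 0.12 for flanking genes, −0.14 to 0.17 for antisense RNAs and −0.29 to −0.031 for endothelial targets.

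Signs turned after centring for probe sets of Hoxa3 (0.017), Hoxa10 (0.023) and Hoxc5 (0.014), and after quantile normalization for the brighter one of Hoxa9 (0.028) and for Hoxd9 (0.065). With averaged probe sets they turned for Hoxa3 (0.15), Hoxa5 (0.21), Hoxb4 (0.035), both lower Hoxc5 probe sets (0.045) and Hoxd13 (−0.084). With an array left out, differences crossed 0 in the dimmest Hoxa3 (−0.21 to 0.19), the dimmer Hoxa4 (−0.20 to 0.12), the dimmer Hoxa5 (−0.52 to 0.11), the brighter Hoxa9 (−0.28 to 0.20), the dimmer Hoxa9 (−2.22 to 0.69), the brighter Hoxa10 (−0.068 to 0.059) and the dimmer Hoxa10 (−0.41 to 0.17). They also did in Hoxb1 (−0.14 to 0.21), Hoxb2 (−0.33 to 0.27), the dimmer Hoxb3 (−0.022 to 0.14), the brighter Hoxb4 (−0.51 to 0.30), Hoxb7 (−0.012 to 0.14), Hoxb13 (−0.054 to 0.17), the second Hoxc5 (−0.25 to 0.22) and the dimmest Hoxc5 (−0.19 to 0.028). The same held in Hoxc8 (−2.04 to 0.48), Hoxc10 (−1.21 to 0.027), the brighter Hoxd8 (−0.24 to 0.29), Hoxd9 (−0.21 to 0.14), Hoxd12 (−0.088 to 0.33) and the dimmer Hoxd13 (−0.24 to 0.37). Outside the family, it held in Pdx1 (−0.32 to 0.012), Hoxb5os (−0.14 to 0.48), Cdh5 (−0.14 to 0.72), Pecam1 (−1.03 to 0.11) and Pou5f1 (−0.23 to 1.23). Pbx3 was at −1.46 without control 1, where 1 control array is left. The cause of these turns was not tested.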
